A study of Rattus norvegicus with 12 samples.

Results

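To describe how the mRNAs of the transcription machinery behaved after silencing of mt-tRF-LeuTAA, the genes of RNA polymerase II (Pol II), of Mediator and of the kinases, cyclins and elongation factors that act on Pol II were taken from the table of detected genes by their symbols. These were the Polr2 subunit genes a to m, all numbered Med genes, and Cdk7, Cdk8, Cdk9, Cdk12, Cdk13, Ccnt1, Ccnt2, Supt5h and Supt6h. They came to 47 of the 13733 genes in the table, namely 10 Pol II subunits, 29 Mediator subunits and 8 kinases, cyclins and elongation factors. Cdk8 was not analysed here. All 47 genes had at least 10 reads in every library, the lowest being 40 reads for Ccnt1 in a single library.

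Pol II is the enzyme that transcribes the protein-coding genes of the nucleus, and its largest subunit carries a long repetitive carboxy-terminal domain (CTD) whose phosphorylation marks the steps of transcription. Mediator is a large complex, built of a head, a middle, a tail and a detachable kinase module, that passes the signal of DNA-bound activators to Pol II at the promoter. After initiation Pol II pauses close to the start site, and it is released by P-TEFb, the kinase Cdk9 with cyclin T1 or T2 as its partner, while Cdk12 and Cdk13 phosphorylate the CTD along the gene body. These roles are known mainly from human cells and yeast.

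mt-tRF-LeuTAA is a fragment cut from the leucine tRNA that the mitochondrial genome encodes. Islets from male Wistar rats aged 3 months were dispersed, and the cells received 30 pmol of a single-stranded oligonucleotide complementary to it (anti-mt-tRF-LeuTAA, n = 6) or of a scrambled one (anti-control, n = 6) by transfection, and total RNA was sequenced 72 h later. The islets came from 6 rats per the study, and the same number in both groups was treated as the same rat. A dispersed islet preparation holds several cell types, so that fewer cells of a type and less RNA per cell cannot be told apart, and the fragment itself was not measured in these libraries.

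Levels are log2 CPM, that is, the log2 of counts per M (mega) reads of the library with a small prior count added. The anti-mt-tRF-LeuTAA libraries held 16.4 to 20.3 M (mega) reads in the listed genes and the anti-control libraries 17.6 to 23.4 M (exact two-sided permutation test over libraries, p = 0.223). Genes at 0 reads numbered 4 to 18 in anti-mt-tRF-LeuTAA libraries, against 116 to 196 in anti-control libraries. The same permutation test gave p = 0.00216 for them, the smallest value it can give with 6 libraries per group. The summed level of 6 endocrine markers (Ins1, Ins2, Iapp, Gcg, Sst and Ppy) was 92211 to 185009 CPM in anti-mt-tRF-LeuTAA libraries and 83574 to 203671 CPM in anti-control libraries. Marker sums of 6 other cell types overlapped between the groups. In anti-mt-tRF-LeuTAA libraries they were 14.5 to 31.5 CPM for 5 acinar, 261 to 348 CPM for 5 ductal, 44.1 to 536 CPM for 5 endothelial, 57.7 to 116 CPM for 6 macrophage, 456 to 2918 CPM for 6 stromal and 11.8 to 83.6 CPM for 6 Schwann cell genes. In anti-control libraries they were 2.65 to 42.9 CPM for the acinar, 299 to 469 CPM for the ductal, 29.1 to 565 CPM for the endothelial, 51.6 to 138 CPM for the macrophage, 1131 to 4330 CPM for the stromal and 20.3 to 114 CPM for the Schwann cell genes. Of these markers Cel (acinar) and Cd68 (macrophage) were called without the block, both higher. The fit with the rat as a block called these and, in addition, the endothelial Kdr and Flt1 higher and the ductal Krt7, the macrophage Adgre1 and the stromal Col1a1 and Dcn lower. The acinar markers Ctrb1 and Cpa1 were at 0 reads in at least 1 library. The part of depth, of these cell types and of the genes at 0 reads in the results below was not tested.

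After silencing of mt-tRF-LeuTAA a small number of the 47 genes changed, by up to 1.74-fold, while the median gene differed by 0.01 on the log2 scale. In the fit without the block, which ignores the pairing by rat, Cdk13, Ccnt1 and Ccnt2 rose among the kinases and cyclins. In Mediator Med26 and Med1 rose and Med25 fell, and in Pol II the gene of the largest subunit, Polr2a, fell. The fit with the rat as a block called these and 8 more, Med13 and Med16 among them. A gene was called when its Benjamini-Hochberg adjusted p over all 13733 genes was at most 0.05 in a limma fit of the deposited values. By this rule 7 of 47 genes were called (14.9%), against 15.5% of all genes, so their share was near the background. Of the 7, 5 were higher and 2 lower, where 10.9% of all genes were called higher and 4.65% lower. No called gene changed by 2-fold or more. Of the 47, 12 had an unadjusted p under 0.05 in this fit, but the share of all genes under it was not counted. That count is therefore not set against a background.

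With the rat as a block, which removes differences between rats, 15 of 47 genes were called (31.9%), 7 higher and 8 lower, against 35.3% of all genes (17.6% higher and 17.7% lower). These 15 included all 7 called without the block. Of the 8 genes called with the block only, Med13 and Med16 were called in each of the 6 blocked fits without 1 rat, and the others in 0 to 3 of them. Without the libraries of rat 2 the blocked count was 9, and without each of the other rats 10 to 14. The median log2 fold change of the 47 genes was 0.01, ranging from -0.43 to 0.80, and that of all genes was -0.04. Adjusted p-values with the rat as a block are given below as blocked. In 22 of 47 genes (46.8%) the difference had the same direction in 6 of 6 rats, 12 upward and 10 downward, against 33.9% of all genes. The 6 libraries of one group lay entirely above the 6 of the other for 6 of 47 genes (12.8%), which were Cdk13, Polr2a, Med26, Ccnt1, Ccnt2 and Cdk9, against 10.2% of all genes. Scaling the libraries by their totals alone gave 6 higher and 1 lower genes without the block and 12 higher and 2 lower with it, and quantile normalization 7 and 1 without the block and 9 and 7 with it.

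**Figure D1:**
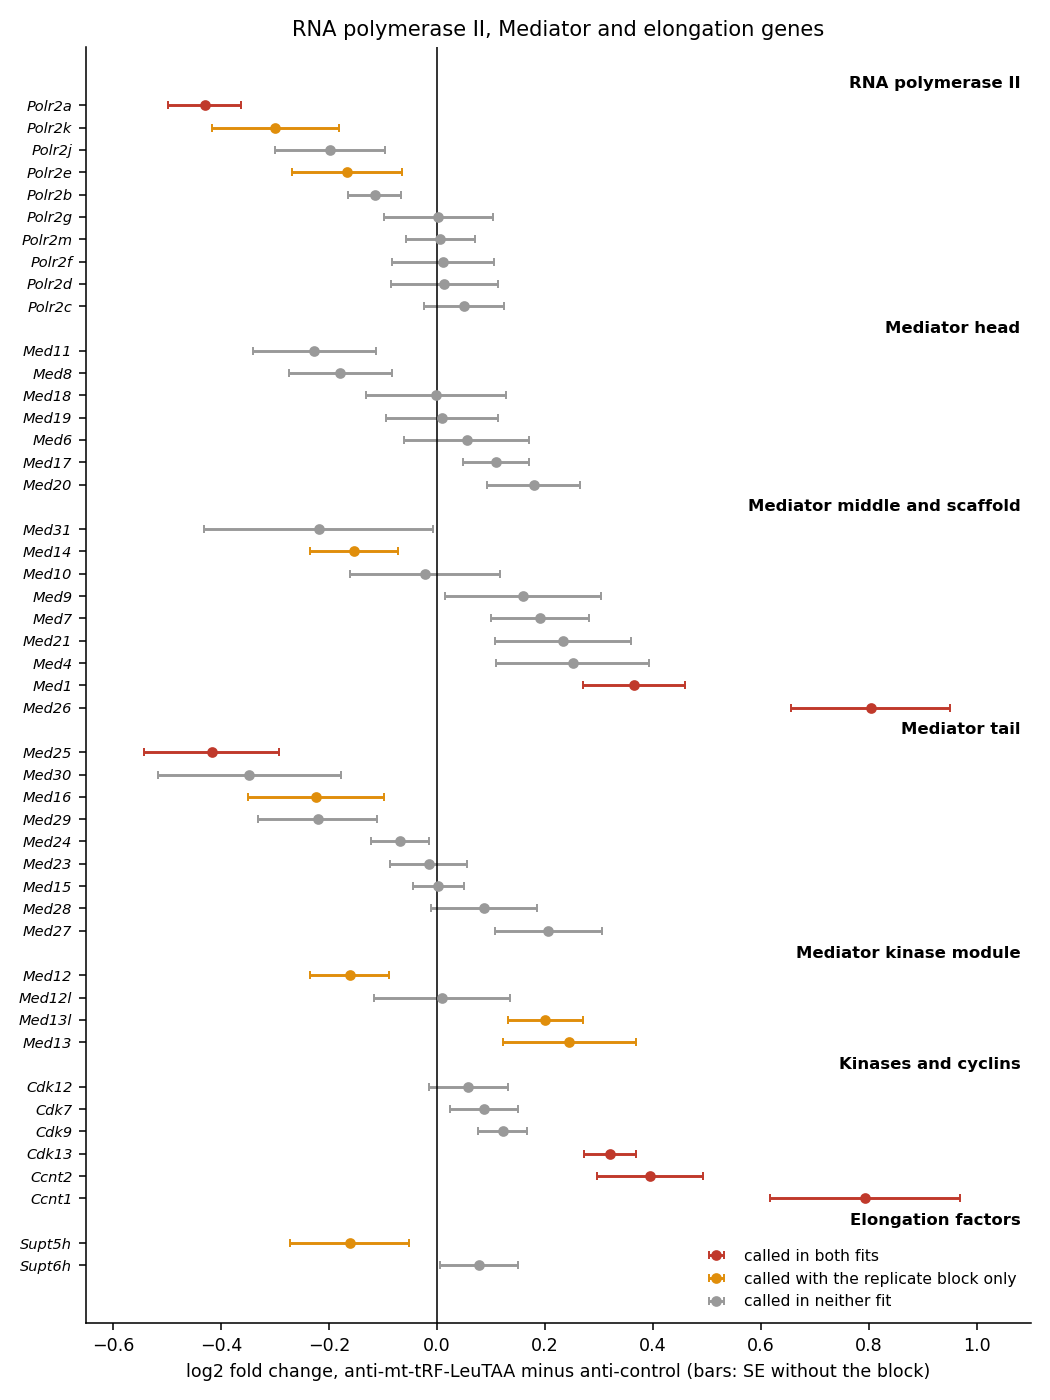
Log2 fold change (anti-mt-tRF-LeuTAA minus anti-control, x axis) of the 47 genes, grouped by complex or role, with bars giving the standard error of the fit without the block (n = 6 libraries per group). Colours separate the 7 genes called in both fits, the 8 called only with the rat as a block and the 32 called in neither; the called genes lie between -0.43 for Polr2a and 0.80 for Med26, and most others sit close to 0.

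The sequence upstream of the start site is shown for the called genes because it is where the general transcription machinery itself assembles on them. RefSeq promoters (build GRCr8) were matched by symbol for 38 of the 47 genes, with 39 promoters since Med12l has 2 of them, and for 5 of the 7 called genes. Cdk13 and Med1 are named only. Each line gives the 150 bases before the start site, 5′ to 3′ on the strand of the gene, and capitals mark the matches to the 4 motifs named below.
Polr2a: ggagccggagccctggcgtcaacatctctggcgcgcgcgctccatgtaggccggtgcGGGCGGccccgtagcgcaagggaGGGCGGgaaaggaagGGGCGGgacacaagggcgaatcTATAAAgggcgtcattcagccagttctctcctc
Med26: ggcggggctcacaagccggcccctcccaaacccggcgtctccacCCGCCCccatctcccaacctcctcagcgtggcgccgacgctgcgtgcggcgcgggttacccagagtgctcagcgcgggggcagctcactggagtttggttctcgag
Ccnt1: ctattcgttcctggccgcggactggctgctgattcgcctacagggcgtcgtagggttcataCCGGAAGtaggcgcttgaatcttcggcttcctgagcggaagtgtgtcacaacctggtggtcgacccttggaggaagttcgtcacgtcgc
Ccnt2: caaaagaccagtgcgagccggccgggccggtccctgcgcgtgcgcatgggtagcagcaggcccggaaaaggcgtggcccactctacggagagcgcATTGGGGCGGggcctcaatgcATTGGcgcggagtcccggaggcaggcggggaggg
Med25: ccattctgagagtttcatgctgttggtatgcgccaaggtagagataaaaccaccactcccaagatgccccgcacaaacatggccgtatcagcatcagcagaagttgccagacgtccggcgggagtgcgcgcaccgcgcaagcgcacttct

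The windows lie at chr10:54977180-54977329 (minus strand) for Polr2a, chr16:17333620-17333769 (plus strand) for Med26, chr7:131596939-131597088 (minus strand) for Ccnt1, chr13:41803896-41804045 (plus strand) for Ccnt2 and chr1:104512070-104512219 (minus strand) for Med25. The letters searched, on both strands, were GGGCGG for a GC box, TATAAA for a TATA box, CCAAT for the box named after them and CCGGAAG for an ETS site, and the only overlap in these windows is between a CCAAT box and the GC box next to it in Ccnt2. Polr2a held 3 GC boxes and, beginning 33 bases before the start site, a TATA box, the only one among the 39 promoters (2.56%), against 8.0% of all 33469 promoters in the table and 4.03% of the 11667 promoters of genes detected in these cells. GC boxes occurred in 22 of 39 promoters (56.4%), against 26.0% of all promoters and 49.3% of those of detected genes. ETS sites occurred in 10 (25.6%), Ccnt1 among them, against 5.83% and 11.1%, and CCAAT boxes in 11 (28.2%), Ccnt2 among them, against 23.5% and 25.2%. Med25 held none of the 4 motifs in this window, and its window had 56.7% G and C, against 71.3% for Med26 and for Ccnt2, 66.7% for Polr2a and 58.7% for Ccnt1.

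In Pol II itself, the only subunit called without the block was Polr2a (ENSRNOG00000028834, chr10:56339284-56365084 in Rnor_6.0, minus strand), which encodes the largest, CTD-bearing subunit and whose promoter with the TATA box is given above. Its lowest, median and highest levels were 7.37, 7.49 and 7.61 log2 CPM in anti-mt-tRF-LeuTAA libraries, against 7.77, 7.92 and 8.08 log2 CPM in anti-control libraries. Every anti-mt-tRF-LeuTAA library was thus below every anti-control library. Polr2a fell by 0.43 on the log2 scale (standard error 0.07), which is 1.35-fold lower, with a limma adjusted p of 0.000589 without the block and 0.00125 with it. It was called in all 12 fits that left out 1 library, with an adjusted p of at most 0.00208.

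For the 9 other subunits among the 47 genes log2 fold changes ran from -0.30 to 0.05, with a median of 0.00. Polr2h, Polr2i and Polr2l are not among the 47. No call was made among them by limma without the block or by limma-voom, and 2 of them, Polr2b and Polr2k, had an unadjusted p under 0.05. Polr2b, which encodes the second largest subunit and forms the active centre with Polr2a, had a log2 change of -0.12 (adjusted p = 0.144, blocked 0.0811) and was lower in 6 of 6 rats. Polr2c, Polr2d, Polr2f, Polr2g and Polr2m lay between 0.00 and 0.05 and were higher in 2 to 4 of the 6 rats. Polr2e and Polr2k were called lower with the block only. Polr2j was called lower with the block after quantile normalization (0.0416) and in no fit of the deposited values.

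Polr2k had 3.50, 3.62 and 4.04 log2 CPM (lowest, median and highest) in anti-mt-tRF-LeuTAA libraries and 3.77, 4.07 and 4.19 log2 CPM in anti-control libraries, a log2 change of -0.30 (limma adjusted p = 0.110, blocked 0.0288). Polr2e had 5.64, 5.92 and 6.17 log2 CPM in anti-mt-tRF-LeuTAA libraries and 5.88, 6.07 and 6.39 log2 CPM in anti-control libraries, a log2 change of -0.17 (adjusted p = 0.318, blocked 0.0285). The groups overlapped for both genes, while each was lower in 6 of 6 rats. Leaving out anti-mt-tRF-LeuTAA replicate 3 brought Polr2k to an adjusted p of 0.0486 without the block. With the block and scaling by library totals neither was called, and with the block and quantile normalization Polr2k was and Polr2e was not.

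Of the 29 Mediator subunits, Med26 and Med1 rose and Med25 fell in the fit without the block, and the blocked fit called 4 higher and 4 lower. Of all genes 10.9% were called higher and 4.65% lower without the block, and 17.6% and 17.7% with it. Med26, Med1 and Med25 all stand outside the head, a module that contacts Pol II. The 7 head subunits among the 29 were Med6, Med8, Med11, Med17, Med18, Med19 and Med20, and Med22 is not among the 29. These 7 gave no call by limma on the deposited values, with or without the block, or by limma-voom. None had an unadjusted p under 0.05 without the block. Their median log2 change was 0.01, or -0.01 after quantile normalization and 0.08 when libraries were scaled by their totals. Their values ran from -0.23 for Med11 (adjusted p = 0.218) to 0.18 for Med20 (adjusted p = 0.196), and Med20 was higher in 6 of 6 rats. With the block, Med20 was called higher after scaling by library totals (0.0439) and Med11 lower without rat 4. The gene model of Med8 spans only 0.885 kb in the table.

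In the middle and scaffold the largest difference was that of Med26 (ENSRNOG00000012270, chr16:19001061-19050874 in Rnor_6.0), a subunit known in human cells to dock elongation factors onto Mediator. Its lowest, median and highest levels were 3.25, 3.73 and 4.13 log2 CPM in anti-mt-tRF-LeuTAA libraries, against 2.68, 2.93 and 3.13 log2 CPM in anti-control libraries. The groups did not overlap, and anti-mt-tRF-LeuTAA replicate 3 was the library nearest to the control range. Med26 rose 1.74-fold (log2 change 0.80, standard error 0.15), with a limma adjusted p of 0.0021 without the block and 0.00211 in the blocked fit.

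Med1 (ENSRNOG00000005606, chr10:86103600-86144880 in Rnor_6.0), the subunit that binds nuclear receptors, had 7.02, 7.13 and 7.44 log2 CPM in anti-mt-tRF-LeuTAA libraries and 6.65, 6.72 and 7.06 log2 CPM in anti-control libraries. The groups overlapped slightly, since rats 1 and 2 were the highest in both. Med1 rose 1.29-fold (log2 change 0.36, standard error 0.09), with a limma adjusted p of 0.0196. With the block the standard error was 0.05 and the adjusted p 0.000359. Both Med1 and Med26 were called in all 12 fits that left out 1 library, with adjusted p of at most 0.0470 and 0.00646.

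Med14, the scaffold that joins head, middle and tail, differed in direction from Med1 and Med26. It had 6.35, 6.54 and 6.79 log2 CPM in anti-mt-tRF-LeuTAA libraries, against 6.57, 6.69 and 6.92 log2 CPM in anti-control libraries, a log2 change of -0.15. It was lower in 6 of 6 rats and passed with the block (limma adjusted p = 0.0233) but not without it (0.246), nor with the block and either other scaling. The remaining middle subunits, Med4, Med7, Med9, Med10, Med21 and Med31, lay between -0.22 and 0.25 with no call on the deposited values, Med4 and Med21 being higher in 6 of 6 rats. With the block, Med21 was called higher after scaling by library totals (0.0350) and Med31 lower after quantile normalization (0.0381). Over the 9 middle and scaffold genes the median was 0.19.

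In the tail, the module that receives activators, Med25 (ENSRNOG00000020363, chr1:100874976-100887853 in Rnor_6.0) fell. This subunit binds viral and cellular activators in human cells. It had 4.73, 5.33 and 5.42 log2 CPM in anti-mt-tRF-LeuTAA libraries, against 5.38, 5.67 and 5.83 log2 CPM in anti-control libraries, so that the groups overlapped only between 5.38 and 5.42, and anti-mt-tRF-LeuTAA replicate 2 was the lowest of the 12 libraries. Med25 was 1.34-fold lower (log2 change -0.42, standard error 0.13), with a limma adjusted p of 0.0396 without the block and 0.00148 with it. Without the block this call was lost on omission of anti-mt-tRF-LeuTAA replicate 1, 2 or 6 or of anti-control replicate 3, 4, 5 or 6, with adjusted p-values from 0.0293 to 0.0857 over the 12 such fits. It was also lost without the intensity trend (0.0531), after quantile normalization (0.0580) and after scaling by library totals (0.0747), whereas with the block it held in each of the 8 alternatives.

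Med16, another tail subunit, had 4.60, 4.87 and 5.20 log2 CPM in anti-mt-tRF-LeuTAA libraries and 4.93, 5.03 and 5.52 log2 CPM in anti-control libraries. It was lower in 6 of 6 rats by a log2 change of -0.22 and passed with the block only (limma adjusted p = 0.276, blocked 0.0142), a call that was lost with the block and scaling by library totals (0.0852). Its gene model overlaps R3hdm4 on the same strand, so its value is uncertain. Med30 had a more negative fold change (-0.35) yet was lower in only 4 of 6 rats, its within-rat differences running from -0.84 to 0.12 (adjusted p = 0.203, blocked 0.104, or 0.0371 with the block and quantile normalization). Med15, Med23, Med24, Med27, Med28 and Med29 gave no call on the deposited values with all rats, whereas the blocked fit called Med27 higher after scaling by library totals (0.0308) and Med29 lower without rat 1. The median of the 9 tail genes was -0.07, or -0.03 after quantile normalization and 0.00 when libraries were scaled by their totals.

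In the kinase module limma and limma-voom called no gene without the block, 2 having an unadjusted p under 0.05. The blocked fit called 2 of its 4 genes higher and 1 lower, where 17.6% of all genes were called higher and 17.7% lower. Med13, which links the kinase module to the core of Mediator, had 7.14, 7.39 and 7.72 log2 CPM in anti-mt-tRF-LeuTAA libraries and 6.90, 7.11 and 7.51 log2 CPM in anti-control libraries, a log2 change of 0.24 (limma adjusted p = 0.215, blocked 0.0104). Its paralog Med13l had 6.31, 6.43 and 6.62 log2 CPM in anti-mt-tRF-LeuTAA libraries and 6.08, 6.22 and 6.37 log2 CPM in anti-control libraries, a log2 change of 0.20 (adjusted p = 0.0730, blocked 0.0392). Med12, which activates the kinase of the module, had 6.63, 6.70 and 6.87 log2 CPM in anti-mt-tRF-LeuTAA libraries and 6.76, 6.83 and 7.16 log2 CPM in anti-control libraries, a log2 change of -0.16 (adjusted p = 0.170, blocked 0.0390). All 3 overlapped between the groups and kept 1 direction in 6 of 6 rats, whereas Med12l, the paralog of Med12, had a log2 change of 0.01 and was higher in 4 of 6. With the block, Med13 and Med13l were also called under both other scalings and Med12 under neither. Leaving out each rat in turn, the blocked fit called Med13 in 6 of 6 fits, Med13l in 1 and Med12 in 0.

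The 6 kinase and cyclin genes all had log2 fold changes above 0, also under both other scalings, with a median of 0.22 and a range from 0.06 to 0.79. Cdk13 (ENSRNOG00000013620, chr17:49833400-49921550 in Rnor_6.0), a CTD kinase that works with cyclin K, had the smallest adjusted p of the 47 genes without the block and, after Med1, the next smallest with it. Its lowest, median and highest levels were 6.55, 6.60 and 6.71 log2 CPM in anti-mt-tRF-LeuTAA libraries, against 6.26, 6.30 and 6.38 log2 CPM in anti-control libraries. The 6 libraries of each group lay close together and the groups were well apart. Cdk13 rose 1.25-fold (log2 change 0.32, standard error 0.05), with a limma adjusted p of 0.000453 without the block, 0.000505 with it and at most 0.00167 when any library was left out. Cdk12, its paralog, had a log2 change of 0.06 (adjusted p = 0.672).

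Both cyclins T, the partners of Cdk9 in P-TEFb, rose. Ccnt2 (ENSRNOG00000017113, chr13:44475970-44515739 in Rnor_6.0) had 6.33, 6.65 and 6.87 log2 CPM in anti-mt-tRF-LeuTAA libraries and 5.99, 6.29 and 6.33 log2 CPM in anti-control libraries, which just did not overlap. Its increase was 1.31-fold (log2 change 0.39, standard error 0.10, limma adjusted p = 0.0152, blocked 0.0112). Ccnt1 (ENSRNOG00000053054, chr7:140219551-140245723 in Rnor_6.0) had 1.98, 2.19 and 2.62 log2 CPM in anti-mt-tRF-LeuTAA libraries and 0.89, 1.53 and 1.65 log2 CPM in anti-control libraries. Again the groups did not overlap, and anti-control replicate 5 stood below the rest. Ccnt1 rose 1.73-fold (log2 change 0.79, standard error 0.18, adjusted p = 0.0079, blocked 0.00862), but after quantile normalization without the block its log2 fold change was 0.51 and the call was lost (adjusted p = 0.0887).

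Cdk9 itself was not called in either fit of the deposited values. It had 6.01, 6.06 and 6.13 log2 CPM in anti-mt-tRF-LeuTAA libraries and 5.89, 5.96 and 6.01 log2 CPM in anti-control libraries, and was higher in 6 of 6 rats without overlap of the groups. Its log2 change of 0.12 (standard error 0.05) did not pass as deposited (limma adjusted p = 0.0922, blocked 0.0647). It passed after quantile normalization both without and with the block (0.0275 and 0.0192), and after scaling by library totals with the block (0.0236) but not without it (0.0659). Cdk7, the kinase of the general factor TFIIH, had 4.69, 4.86 and 4.91 log2 CPM in anti-mt-tRF-LeuTAA libraries and 4.68, 4.73 and 4.81 log2 CPM in anti-control libraries, a log2 change of 0.09 that did not pass (adjusted p = 0.415, blocked 0.295).

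**Figure D2:**
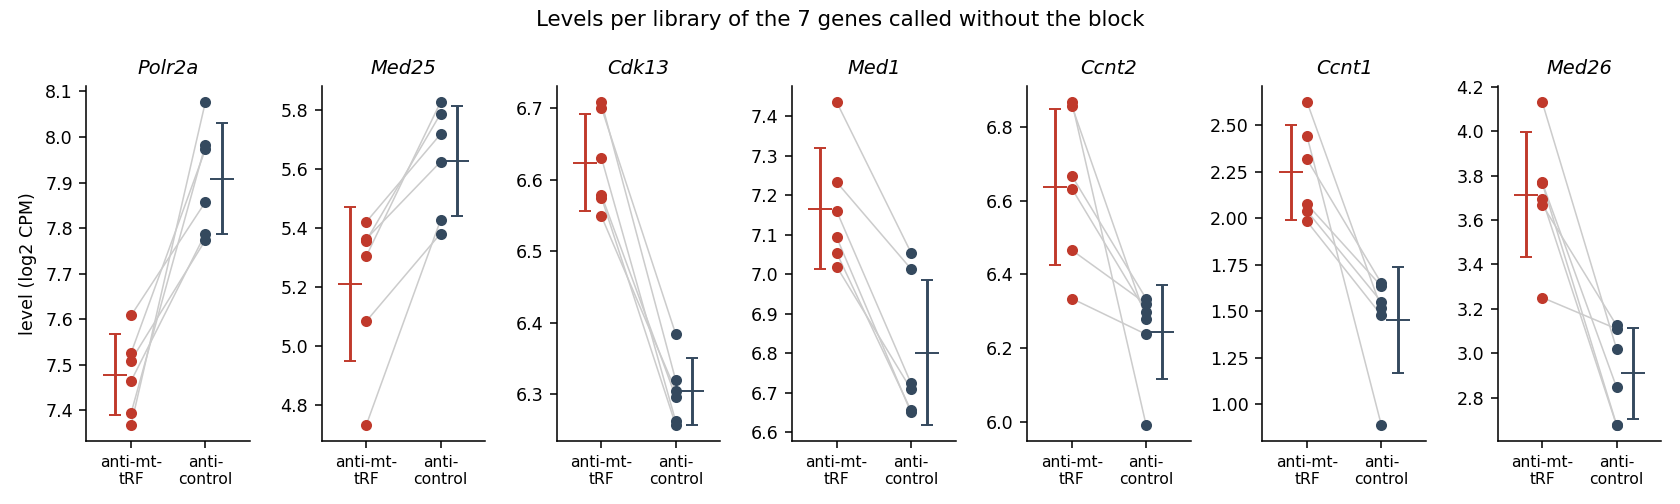
Level (log2 CPM, y axis, each panel on its own scale) of the 7 genes called without the block in each library, with anti-mt-tRF-LeuTAA left of anti-control and grey lines joining the libraries of 1 rat. Horizontal and vertical bars are the mean and SD of 6 libraries; the groups overlap only for Med25 and Med1, and every grey line runs in the direction of its gene.

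Of the elongation factors, Supt5h encodes a subunit of DSIF, which holds paused Pol II and then travels with it. It had 7.69, 7.82 and 8.17 log2 CPM in anti-mt-tRF-LeuTAA libraries and 7.82, 7.96 and 8.40 log2 CPM in anti-control libraries, and was lower in 6 of 6 rats by a log2 change of -0.16. It passed with the block only (limma adjusted p = 0.384, blocked 0.0326), and not with the block and either other scaling. Supt6h, a histone chaperone that follows elongating Pol II, had a log2 change of 0.08 (adjusted p = 0.544) and overlaps Sdf2 on the opposite strand. After quantile normalization it differed by 0.22 and was called higher (adjusted p = 0.0326, blocked 0.00829), and after scaling by library totals, at 0.15, with the block only (0.179 without it, 0.0443 with it).

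Within rats, each of the 7 genes called without the block kept 1 direction in 6 of 6 rats, while the size of the difference varied. Picking genes by their calls favours a common direction, and 22 of all 47 genes kept 1 direction. In rats 1 to 6, in that order, Polr2a differed by -0.71, -0.59, -0.26, -0.32, -0.25 and -0.45 on the log2 scale (anti-mt-tRF-LeuTAA minus anti-control), most in rats 1 and 2. Cdk13 differed by 0.24, 0.39, 0.28, 0.37, 0.32 and 0.32, and Med1 by 0.22, 0.38, 0.31, 0.44, 0.40 and 0.44, both within a narrow range. Med26 differed by 0.92, 1.11, 0.14, 0.54, 1.02 and 1.09 and Ccnt2 by 0.58, 0.88, 0.10, 0.33, 0.34 and 0.15, with the smallest value of each in rat 3. Ccnt1 differed by 0.49, 1.11, 0.44, 0.50, 1.55 and 0.66 and was largest in rat 5, whose control library was the low one. Over the 47 genes the median size of the difference was 0.10 in rat 3 and 0.16 to 0.22 in the other rats, and over all genes it was 0.20 in rat 3 and 0.25 to 0.29 in the others.

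**Figure D3:**
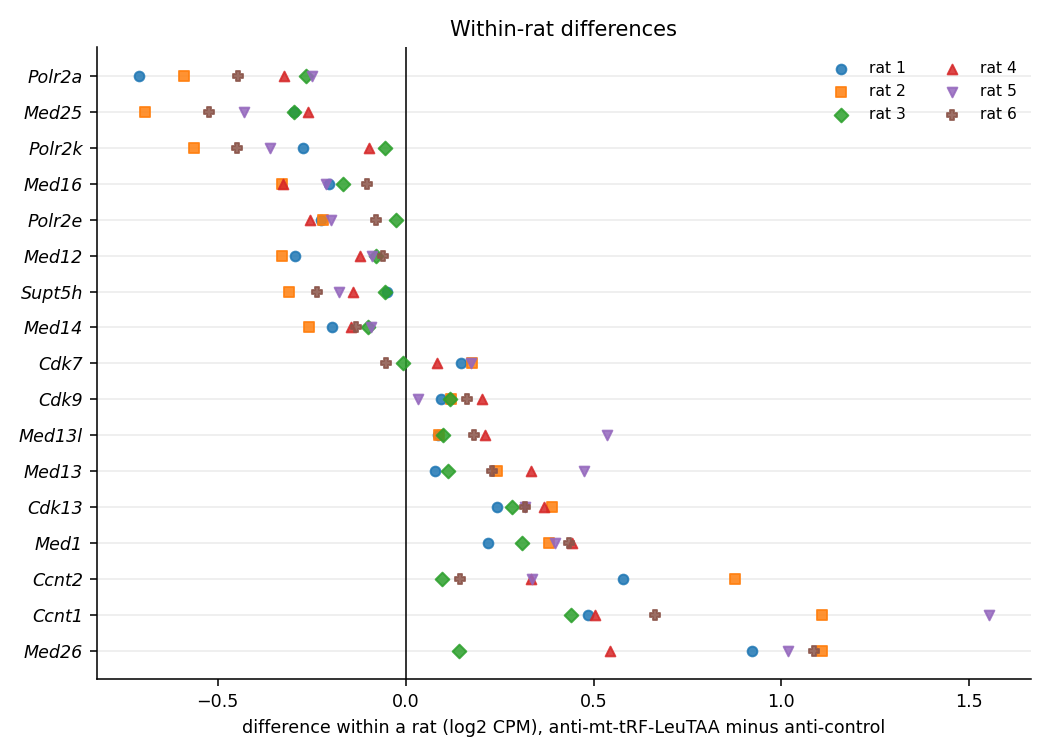
Difference within each of 6 rats (log2 CPM, anti-mt-tRF-LeuTAA minus anti-control, x axis) for the 17 genes described by library, ordered by fold change. Each symbol is 1 rat, and only Cdk7 has rats on both sides of 0. Most of the 17 were chosen by their calls, which favours a common direction, whereas 22 of all 47 genes kept 1 direction in 6 of 6 rats.

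A factor applied to a whole library largely cancels in the ratio of 2 genes, whereas quantile normalization can change the ratio. By such ratios 5 pairs of related genes were also described. They were chosen after their values were seen and are given without a test. The log2 ratio of Polr2a over Polr2b was 0.55 ± 0.12 in anti-mt-tRF-LeuTAA libraries and 0.86 ± 0.17 in anti-control libraries (SD, n = 6 each), lower in 6 of 6 rats with overlapping groups. That of Cdk13 over Cdk12 was -0.06 ± 0.07 in anti-mt-tRF-LeuTAA libraries and -0.32 ± 0.13 in anti-control libraries, higher in 6 of 6 rats with no overlap. The ratio of Ccnt1 over Ccnt2 was -4.39 ± 0.29 in anti-mt-tRF-LeuTAA libraries and -4.79 ± 0.33 in anti-control libraries, higher in 5 of 6 rats. After quantile normalization the log2 fold changes of Ccnt1 and Ccnt2 were 0.51 and 0.44, nearer each other than 0.79 and 0.39 as deposited. Med12 over Med12l differed by -0.17 and Med13 over Med13l by 0.04, with 4 of 6 rats in the direction of each and broad overlap.

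**Figure D4:**
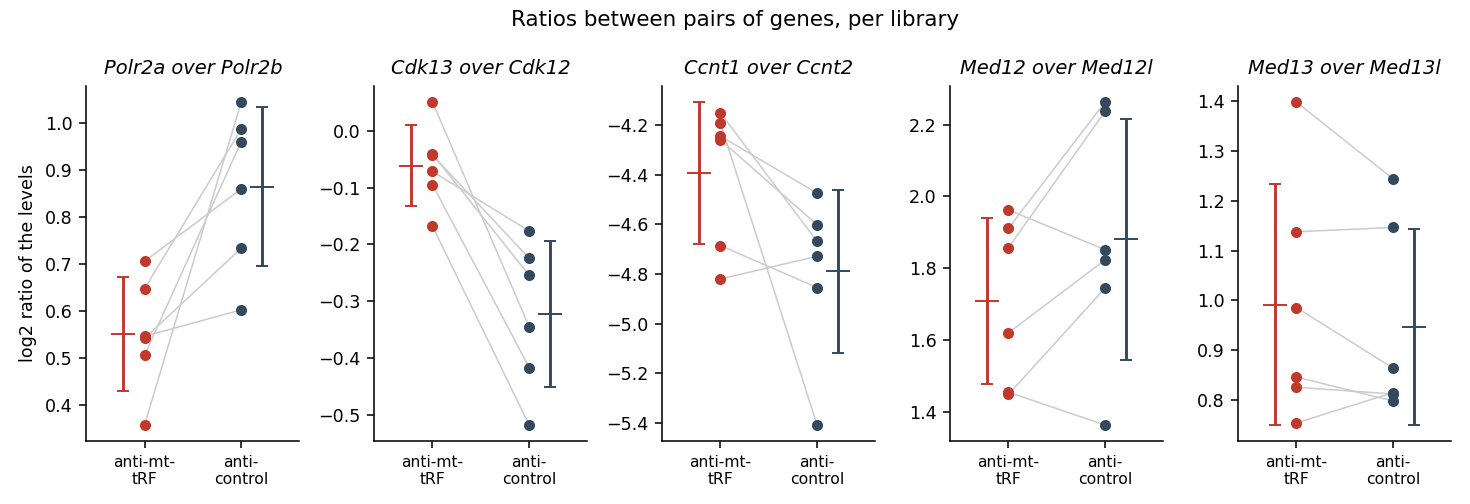
Log2 ratio of the levels of 2 genes within each library (y axis, each panel on its own scale) for 5 pairs, with anti-mt-tRF-LeuTAA left of anti-control, grey lines joining the libraries of 1 rat, and bars for the mean and SD of 6 libraries. Only the ratio of Cdk13 over Cdk12 separates the groups, at -0.06 in anti-mt-tRF-LeuTAA and -0.32 in anti-control libraries on average.

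The genes were also described by their position in Rnor_6.0. Spans ran from 0.885 to 319 kb, and across the 47 genes the log10 of the span and the log2 fold change had a Pearson r of 0.28 and a Spearman rho of 0.33, against -0.06 and -0.03 across all 13733 genes, where genes share libraries and are not independent replicates. For 24 of the 47, a gene expressed in anti-control libraries (mean of at least 1 log2 CPM) ended within 50 kb upstream on the same strand, and their median log2 fold change was 0.00, against 0.06 for the 23 others. This was so for 2 of the 5 genes called higher, Ccnt1 and Med26, and for both genes called lower. Polr2e and Med16, both called lower with the block, are neighbours on chromosome 7 on the same strand, 5.92 kb apart. No source used here states the strand setting of the counting, so values of genes that overlap another, such as Polr2b with Igfbp7, Polr2j with Lrwd1 and Med19 with Tmx2, are uncertain.

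The pathway around these genes was described by 6 lists of 121 measured genes, with 14 called higher and 3 lower without the block, 25 higher and 12 lower in the blocked fit, and a median log2 change of 0.04. These were 14.0% of the listed genes without the block, against 15.5% of all genes, and 30.6% with it, against 35.3% of all genes. The same shares of all genes are the background for the counts of each list below. Omission of anti-mt-tRF-LeuTAA replicate 4 or 6 or of anti-control replicate 4 or 5 brought the count of 17 down to 10 or 11. Of 32 general transcription factor genes 4 rose and 2 fell without the block, with a median of 0.02, and the blocked fit called 6 higher and 6 lower. Gtf2h1, a subunit of TFIIH, had 6.27, 6.49 and 6.89 log2 CPM in anti-mt-tRF-LeuTAA libraries and 5.45, 5.66 and 6.07 log2 CPM in anti-control libraries, with no overlap, and rose by a log2 change of 0.76 (limma adjusted p = 0.00169). Taf7, a TFIID subunit, rose by 0.67 (adjusted p = 0.00335) and Gtf2h4, another TFIIH subunit, by 0.53 (adjusted p = 0.00399). Ercc2 of TFIIH rose by 0.31 (adjusted p = 0.0152). Taf9 of TFIID fell by 0.66 on the log2 scale (adjusted p = 0.0392) and Gtf2b, which encodes TFIIB, fell by 0.23 (adjusted p = 0.0483), but these calls held in only 3 and 2 of the 12 fits with a library left out.

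Of 27 pausing and elongation genes 1 rose and 1 fell without the block, and their median was -0.05. The blocked fit called 2 higher and 3 lower. Hexim1, the one called lower without the block, encodes an inhibitor of P-TEFb. It had 5.69, 6.04 and 6.56 log2 CPM in anti-mt-tRF-LeuTAA libraries and 6.46, 6.74 and 7.06 log2 CPM in anti-control libraries, which overlapped only between 6.46 and 6.56, and was lower in 6 of 6 rats by a log2 change of -0.64 (limma adjusted p = 0.0134, blocked 0.000218). Iws1, a partner of Supt6h, rose by 0.35 (adjusted p = 0.0117). Elof1, an elongation factor that binds Pol II, was lower in 6 of 6 rats and was called with the block only (log2 change -0.25, adjusted p = 0.0584, blocked 0.00939).

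Of 16 genes for CTD kinase partners and CTD-binding or CTD-dephosphorylating proteins, only Pcf11 was called without the block. Pcf11, a CTD-binding factor of transcription termination, had 7.47, 7.79 and 8.18 log2 CPM in anti-mt-tRF-LeuTAA libraries and 6.31, 6.54 and 6.64 log2 CPM in anti-control libraries. Every anti-mt-tRF-LeuTAA library was far above every anti-control library, and the rise was 2.53-fold (log2 change 1.34, standard error 0.12, limma adjusted p = 4.6e-06), more than in any of the 47 genes. Ctdp1, a CTD phosphatase, and Scaf4, a CTD-binding protein, were higher with the block only (log2 fold changes 0.32 and 0.18, adjusted p = 0.104 and 0.137, blocked 0.0178 and 0.0191).

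Among 13 genes of Pol II assembly and import the 3 that were called without the block rose, and the median was 0.19. The blocked fit called 5 higher and 0 lower. Tango6, which acts in the cytoplasmic assembly of RNA polymerases, rose by 0.76 (limma adjusted p = 0.000252, no overlap of the groups), Znhit2 by 0.36 (adjusted p = 0.0309) and Gpn2 by 0.32 (adjusted p = 0.0488). Of 18 subunits of Pol I and Pol III the 3 that were called without the block rose, with a median of 0.06 over the list. The blocked fit called 4 higher and 2 lower. Polr3e rose by 0.40 (adjusted p = 0.00365), Polr1b by 0.33 (adjusted p = 0.0259) and Znrd1, a Pol I subunit, by 0.32 (adjusted p = 0.0435). Of 15 Integrator genes, whose complex cleaves nascent RNA of paused Pol II, the 2 that were called without the block rose, and the median was 0.11. The blocked fit called 5 higher and 1 lower. Ints2 rose by 0.37 (adjusted p = 0.0183) and Ints8 by 0.23 (adjusted p = 0.0403), while Ints11, the endonuclease of the complex, had 0.30 (adjusted p = 0.0519, blocked 0.0025). The calls of Znhit2, Gpn2, Polr1b, Znrd1 and Ints8 were each lost on leaving out any of 6 to 9 of the 12 libraries.

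**Figure D5:**
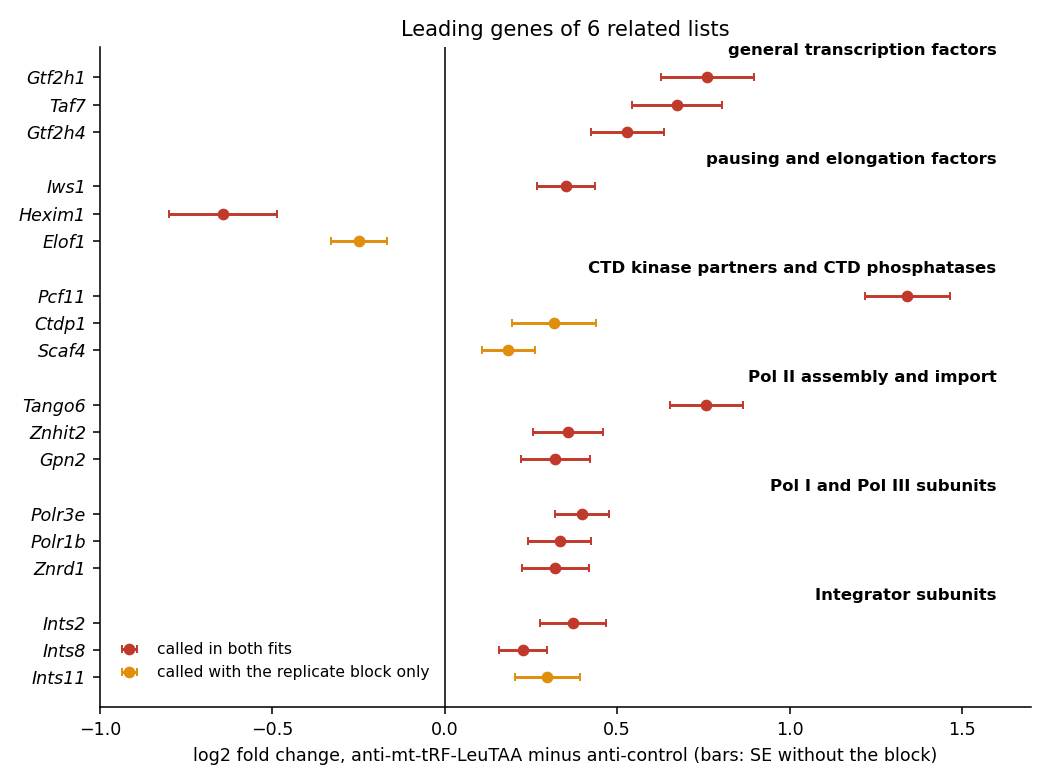
Log2 fold change (anti-mt-tRF-LeuTAA minus anti-control, x axis) of the 3 genes with the smallest adjusted p in each of 6 related lists, with bars giving the standard error of the fit without the block (n = 6 libraries per group). Pcf11 at 1.34 is the highest and Hexim1 at -0.64 the lowest; Ctdp1, Scaf4, Elof1 and Ints11 were called with the rat as a block only.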

How the data were processed

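Total RNA libraries were made with a stranded kit. Tools in the submitters' processing notes are STAR 2.5.3a, cutadapt 1.8, edgeR 3.30.3, limma 3.44.3, HTSeq 0.9.1 and R 4.0.3, with Rnor_6.0 as the build, and what each did is not given in the sources here. The deposited values of the 13733 detected protein-coding genes are log2 CPM with a prior count of 1. Back-transformation gave whole reads with no deviation above 5.7e-08 reads, and the scaling factors so recovered ran from 0.918 to 1.10. Columns and further tables holding the authors' group means, fold changes and p-values were not used.

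The main fit used the deposited log2 CPM values and not a count model, and limma-voom on the recovered reads was an alternative. All genes were fitted with limma 3.58.1 in R 4.3.3 with an intensity trend and no block, and p-values were adjusted by Benjamini-Hochberg over 13733 genes. The fit with the rat as a block was an alternative and is the one that uses the pairing of libraries by rat. It called 2412 of all genes higher and 2431 lower, which are the counts that the study reports, whereas the fit without the block does not give them. The study states that each N is the islets of 1 rat, with 6 rats in all, and libraries of the same number, once group means were subtracted, had correlations of 0.474 to 0.763 (median 0.628), so the numbers pair the libraries. In simulated data on 13733 genes the fit without the block recovered all 100 genes changed by a log2 of 1 and 83 of 100 changed by 0.5. The changed genes were drawn only from those at or above the median level, with assumed spreads between rats and libraries. These figures therefore do not cover lower genes, Med26 and Ccnt1 among them, or changes below 0.5.

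Genes given by library were those called without the block, up to 8 more by adjusted p with the block, and Polr2a, Cdk7, Cdk9, Ccnt1, Supt5h, Med1, Med12 and Med14, 17 in all. From each related list the 3 genes with the smallest adjusted p were named, and Ercc2, Taf9 and Gtf2b were added after their values were seen. Some genes of these lists are not reported here. The genes, lists and markers were chosen with earlier results of these data known. Motifs were counted in the 150 bases before the start site in RefSeq promoters.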

Additional observations from a re-analysis of the deposited data

Results flagged for a closer look

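Of the 94 groups of 6 libraries (47 genes in each of the anti-mt-tRF-LeuTAA and anti-control groups), 4 held a library that stood apart from the others by Dixon's test at its 95% critical value, where chance gives about 1 in 20. All 4 were anti-control libraries. Ccnt1 was lowest in anti-control replicate 5, at 0.89 log2 CPM, with the nearest library at 1.48. Ccnt2 was lowest in anti-control replicate 2, at 5.99 log2 CPM, with the nearest at 6.24. Polr2b was highest in anti-control replicate 4, at 7.19 log2 CPM, with the nearest at 7.04. Med29, a tail subunit, was lowest in anti-control replicate 1, at 3.71 log2 CPM, with the nearest at 3.96. Ccnt1 and Ccnt2 remained called higher in each of the 12 fits that left out 1 library, with adjusted p of at most 0.0215 and 0.0374.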

How the results depend on the processing

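With the replicate block 15 of the 47 genes were called in place of 7, 4843 of all genes in place of 2132, and 37 of the 121 related genes in place of 17. Restricting the fit to genes at or above the median level, which leaves fewer genes tested, gave 983 calls among all genes and 10 among related genes. Leaving out 1 library gave 6 to 8 calls among the 47 genes, 1728 to 2195 among all genes and 10 to 16 among related genes, and leaving out 1 rat in the replicate block gave 9 to 14. The difference in reads between the groups was -1.91 to -0.741 M (anti-mt-tRF-LeuTAA minus anti-control) when 1 library was left out, against -1.38 M with all 12. Higher genes made up 71.4% of calls among the 47, 87.5% after quantile normalization and 85.7% after scaling by library totals, and with the replicate block 46.7%, against 56.25% and 85.7%. Among all genes these shares were 70.1%, 66.2% and 85.7% without the block and 49.8%, 43.9% and 67.5% with it. The median log2 fold change of all genes was -0.04 as deposited, -0.07 after quantile normalization and 0.04 after scaling by library totals. The ratio of Med13 over Med13l, which differed by 0.04, turned to -0.04 without anti-mt-tRF-LeuTAA replicate 2, and with 1 library left out ran from -0.0367 to 0.104. Of 320 alternative fits of the 17 genes given by library, 297 kept direction and call, 11 lost a call, 12 gained one and 0 reversed, and of 336 for the 18 named related genes these were 284, 42, 10 and 0. Under each of the 2 other scalings 4 of the 47 genes changed sign, 0 of them called in either fit. Where a call changed, the cause was not tested. Depth limits Ccnt1 most, with 40 reads in its shallowest library.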

Other observations

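Reads of the 47 genes together made up 0.303 ± 0.0135% of the reads in anti-mt-tRF-LeuTAA libraries and 0.287 ± 0.0137% in anti-control libraries (SD, n = 6 each). Besides Cdk9, the genes that kept 1 direction in 6 of 6 rats without a call in either fit of the deposited values were Polr2b and Polr2j, both lower, and Med4, Med20, Med21 and Med27, all higher.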
